A study of Mus musculus with 4 samples.

Results

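Described here are 10 genes by which mouse monocytes are recognised, as measured by RNA-seq in 4 libraries. They were chosen by symbol, as the rows of the deposited FPKM tables named Ccr2, Ly6c2, F13a1, Fn1, Vcan, Cx3cr1, Plac8, Lyz2, Emr1 and Itgam. All 10 were found, among 23284 rows in all. Each library came from EGFP+ cells re-sorted from the marrow mononuclear cells of a wild-type mouse 24 h after it was transplanted with LSK cells (Lin− Sca1+ c-Kit+, the marrow fraction of stem and multipotent progenitor cells) of CAG-EGFP donors, whose EGFP transgene is driven by a promoter active in nearly all cells. The 5-FU recipients (n = 2) had been given 200 mg/kg of 5-fluorouracil intravenously 2 days before the transplant, and the control recipients (n = 2) had not been treated. 5-fluorouracil is a pyrimidine analog that kills dividing cells and so empties the marrow of cycling progenitors. Nothing used here states the strain and age of the mice, or whether the donor cells were pooled. The labels call the libraries biological replicates. The comparison asks what differs in cells recovered from a 5-FU-treated marrow, here for monocyte genes.

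Monocytes arise in the marrow from granulocyte-monocyte progenitors by way of a committed monocyte progenitor, under the M-CSF receptor (Csf1r) and the transcription factors PU.1, IRF8 and KLF4. In the mouse they fall into a classical or inflammatory subset, which carries much Ly6C and CCR2 and leaves the marrow along CCR2 ligands, and a patrolling subset, which carries much CX3CR1 and little Ly6C, depends on NR4A1 and stays along vessel walls. Ccr2, Ly6c2, F13a1, Fn1, Vcan and Plac8 are strongest in the classical subset, and Cx3cr1 in the patrolling subset. Lyz2, Emr1 and Itgam are shared with macrophages and, for Lyz2 and Itgam, with granulocytes. None of the 10 is exclusive to monocytes: Plac8 and Ccr2 are also transcribed in myeloid progenitors, Emr1 in marrow macrophages and Fn1 in stroma.

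The libraries held transcripts of several cell types. Kit and Ly6a, the genes of the sort antigens c-Kit and Sca1, were found in all 4 libraries, as were the progenitor genes Cd34 and Flt3. A list of 11 stem and progenitor cell genes that holds them had 677 and 856 FPKM in sum in 5-FU recipients, against 801 and 750.4 FPKM in control recipients. Of these 11, Slamf1 was under 1 FPKM in every library. Among the 10 tested, Ly6a rose (log2 fold change 1.19, adjusted p = 0.032, limma) and 9 did not pass, where 8.23% of all tested genes were called higher. The 17 marrow macrophage markers together had 29660.4 and 16534 FPKM in 5-FU recipients 1 and 2, against 35295 and 40719 FPKM in control recipients 1 and 2, so the libraries labelled as progenitors held abundant macrophage RNA and the 5-FU recipient 2 library the least. In bulk RNA, fewer cells of a type and less RNA per cell cannot be told apart. Values in FPKM are fragments per kilobase of transcript, scaled to library size, which allows levels of different genes to be compared. In genes with a single transcript, part of the low values fell in steps taken as 1 read. The most common ratio to 5-FU recipient 2 was shared by 25 of 74 genes in 5-FU recipient 1. It was shared by 23 of 73 and 20 of 66 genes in control recipients 1 and 2. Totals implied by such values were kept within a preset range. Their medians gave a rough scaled depth of about 8200000 and 8600000 reads in 5-FU recipients and 6800000 and 7100000 reads in control recipients.

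The 10 genes ranged from the most abundant transcripts of the libraries to values near 0. Lyz2 (chr10:117277541-117282272, GRCm38), lysozyme M, was the most abundant, with 3002 and 2208 FPKM in 5-FU recipients and 2669.8 and 3395 FPKM in control recipients, which placed it among the 39 highest of the 11496 genes tested in every library. Plac8 and Emr1 followed, then Ly6c2. F13a1, Ccr2 and Itgam came next, at percentiles from 19.2 to 58.2 of the tested genes over the 4 libraries, and Fn1, Cx3cr1 and Vcan stood at or below percentile 27.2 in every library. By percentile, Ccr2 in control recipients (19.2 and 26.4) was within the range of Fn1 over the 4 libraries (2.5 to 27.2). In each control library it was above Fn1, at 3.58 against 0.899 FPKM and 4.96 against 4.08 FPKM. In this order of levels the group means of F13a1 and Ccr2 in 5-FU recipients, 14.4 ± 4.29 and 14.2 ± 4.94 FPKM (SD, n = 2 each), did not differ beyond their spread, nor did those of F13a1 and Itgam in control recipients, 10.4 ± 6.28 and 10.7 ± 3.36 FPKM. Vcan stayed under 1 FPKM in all 4 libraries, so that 9 of the 10 genes passed the filter of at least 1 FPKM in at least 2 libraries and were tested.

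**Figure D1:**
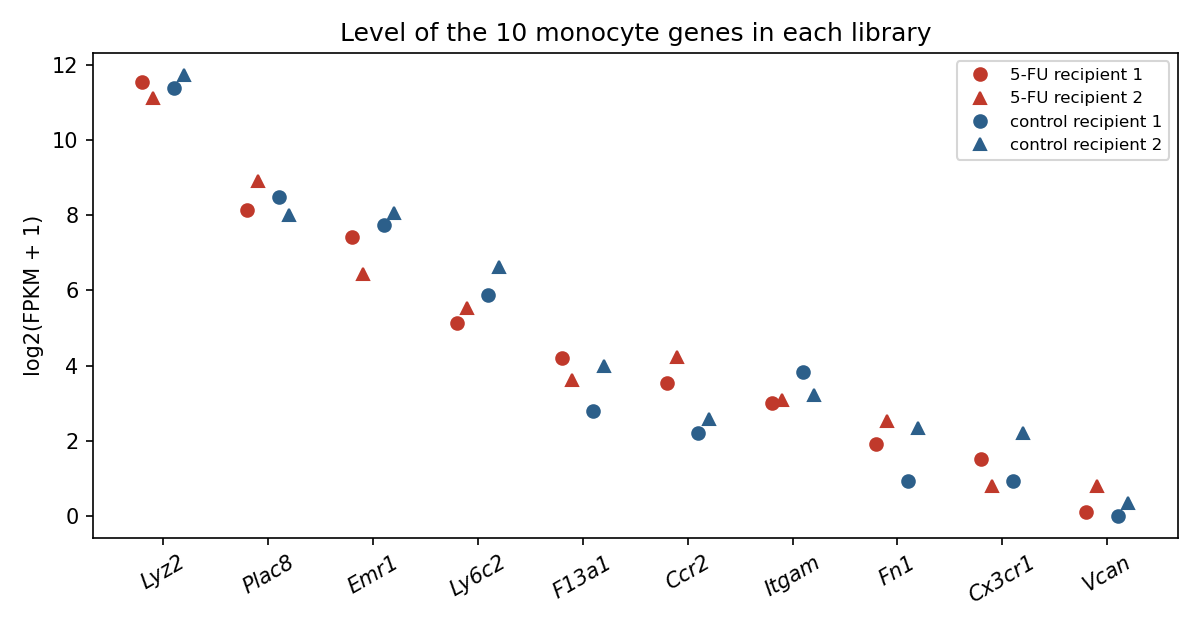
Level of each of the 10 genes on the log2(FPKM + 1) scale (vertical axis) in the 2 libraries of 5-FU recipients (red) and the 2 libraries of control recipients (blue), with circles for recipient 1 and triangles for recipient 2. Ccr2 is the gene whose red points both lie above the blue ones, and for Ly6c2, Emr1 and Itgam both red points lie below them.

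The promoters of the members were read in the RefSeq promoter table (GRCm38.p6, the assembly of mm10), which holds 300 bases around each start. Of the 10 genes 8 had entries, 11 windows in all, and Emr1 and Fn1 had none. The PU.1 core GAGGAA, on either strand, was in 6 of the 11 windows and in 28.3% of all 32851 windows. The 6 windows belonged to 4 of the 8 genes (F13a1, Itgam, Ly6c2 and Plac8). The windows of Ly6c2 overlap and hold the same PU.1 cores, so counts of windows, for each motif, are not counts of separate sites. The share by gene over all promoters was not computed. The C/EBP motif (TT, 2 free bases, G, 1 free base, AA) was in 9 of the 11 windows, from 6 genes with Ccr2 among them, and in 40.7% of all windows. The KLF motif CACCC was in 7 of the 11, from 6 genes without Ccr2, and in 57.5% of all. The IRF motif (GAAA, 2 free bases, GAAA) was in 0 of the 11 windows and in 3.4% of all. The 100 bases before the start are shown for Ccr2, the member called different between the groups, and for Itgam and F13a1 as examples that hold the PU.1 core there (capitals, either strand), as Plac8 and 1 of the windows of Ly6c2 also do. They come from chr9:124102083-124102182 on the plus strand, chr7:128062540-128062639 on the plus strand and chr13:37050245-37050344 on the minus strand. The start used for Ccr2 lies inside the span of the gene (chr9:124101918-124109140). Its window therefore falls within that span and not upstream of it, while those shown for Itgam and F13a1 lie just outside the spans of their genes.
Ccr2: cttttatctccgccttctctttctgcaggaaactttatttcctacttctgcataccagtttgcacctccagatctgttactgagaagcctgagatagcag
Itgam: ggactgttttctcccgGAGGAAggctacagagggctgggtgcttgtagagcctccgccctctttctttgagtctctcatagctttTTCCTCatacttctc
F13a1: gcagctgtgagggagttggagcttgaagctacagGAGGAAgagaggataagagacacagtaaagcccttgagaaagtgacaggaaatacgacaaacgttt
Itgam holds the core at 84 and 15 bases before the start and F13a1 at 66 bases before it, while the Ccr2 window holds none. These are matches of letters and say nothing of binding in these cells.

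Ccr2 was the member that rose in cells from 5-FU recipients, by 3.31-fold in the ratio of mean FPKM. It was 1 of 9 tested members called higher, and 0 were called lower. Over all tested genes 8.23% were called higher and 4.67% lower (limma, Benjamini-Hochberg adjusted p under 0.05), so 1 member in 9 is near the share over all genes. By position alone, Ccr2 was the 1 tested member with both 5-FU libraries above both control libraries, where 31.4% of tested genes were. Ly6c2, Emr1 and Itgam, 3 of 9, had both 5-FU libraries below both control libraries, where 30.7% of tested genes were. The median log2 fold change of the 9 members was −0.23, beside −0.01 for all tested genes.

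Ccr2 (chr9:124101918-124109140, GRCm38) encodes the chemokine receptor by which classical monocytes leave the marrow. It had 10.7 and 17.6 FPKM in 5-FU recipients 1 and 2, against 3.58 and 4.96 FPKM in control recipients 1 and 2. The groups did not overlap, and the lower 5-FU library stood above the higher control library by more than the control libraries differed from each other. The log2 fold change was 1.496 (SE 0.32, adjusted p = 0.027, limma), with both 5-FU libraries higher. Among the tested genes Ccr2 stood at percentiles 44.2 and 58.2 in 5-FU recipients and at 19.2 and 26.4 in control recipients. The call did not hold without control recipient 1 (log2 fold change 1.31, adjusted p = 0.16) or without control recipient 2 (1.69, adjusted p = 0.091), where a lone control library was taken to vary like the other group. Without 5-FU recipient 1 it was 1.84 (adjusted p = 0.0019) and without 5-FU recipient 2 it was 1.16 (adjusted p = 0.042). The summed macrophage markers were lower in both 5-FU libraries, and their part in the level of Ccr2 was not tested.

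Ly6c2 (chr15:75108161-75112066), which encodes a form of the Ly6C surface antigen, was lower in both 5-FU libraries and did not pass the test. It had 34.0 and 45.0 FPKM in 5-FU recipients, against 57.5 and 98.0 FPKM in control recipients. The groups did not overlap, and the control libraries differed from each other more than the highest 5-FU library differed from the lowest control library. The log2 fold change was −0.92 (SE 0.29, adjusted p = 0.070, limma), with a 95% interval of −1.59 to −0.26 that is not adjusted for the number of genes. Without 5-FU recipient 2 it was −1.12 and past the threshold (adjusted p = 0.020). Without control recipient 2, the library in which Ly6c2 was highest, it was −0.54 (adjusted p = 0.50). Ccr2 and Ly6c2, both of which mark the classical subset, therefore had fold changes of opposite sign. The difference between the fold changes was not tested.

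The other genes of the classical subset overlapped between the groups. F13a1 (chr13:36867178-37050244), the A subunit of coagulation factor XIII, which crosslinks fibrin, had 17.4 and 11.3 FPKM in 5-FU recipients, against 5.96 and 14.8 FPKM in control recipients. Fn1 (chr1:71585473-71653280), fibronectin, had 2.76 and 4.73 FPKM in 5-FU recipients, against 0.899 and 4.08 FPKM in control recipients. For both genes the low value was that of control recipient 1, and the 5-FU libraries lay on both sides of control recipient 2. The log2 fold changes, 0.52 for F13a1 (95% interval −0.43 to 1.48, adjusted p = 0.42) and 0.58 for Fn1 (95% interval −0.57 to 1.73, adjusted p = 0.46, limma), turned to −0.072 and −0.13 without control recipient 1.

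Vcan (chr13:89655309-89743027), the chondroitin sulfate proteoglycan versican, had 0.0775 and 0.732 FPKM in 5-FU recipients. It was listed at 0 in control recipient 1 and had 0.273 FPKM in control recipient 2. At the length of the longest annotated transcript these are at most about 7.9 and 77.8 reads in 5-FU recipients and 24.2 reads in control recipient 2, and no fold change is given. Plac8 (chr5:100551589-100572253), which encodes a small cysteine-rich protein of myeloid cells, had 281 and 476 FPKM in 5-FU recipients, against 360.4 and 254 FPKM in control recipients. One control library lay between the 5-FU libraries and the other below them, and its log2 fold change of 0.27 (95% interval −0.44 to 0.98, adjusted p = 0.58, limma) changed sign to −0.11 without 5-FU recipient 2. Without 5-FU recipient 1 it was 0.65 and past the threshold (adjusted p = 0.035), so the value depended on which of the 5-FU libraries was kept.

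Cx3cr1 (chr9:120048683-120068296), the fractalkine receptor that marks patrolling monocytes, was low throughout. It had 1.85 and 0.735 FPKM in 5-FU recipients, against 0.887 and 3.59 FPKM in control recipients, which at the longest transcript amount to at most about 68.3 and 28.3 reads and 27.2 and 115 reads. The highest and the next to lowest values were both from control recipients, so the groups overlapped. The log2 fold change was −0.41 (95% interval −1.54 to 0.73, adjusted p = 0.61, limma), and it was 0.24 without control recipient 2. An interval this wide covers a fall and a rise of more than 1.5-fold, so no difference was detectable at this depth and number of libraries. Within a library Ccr2 exceeded Cx3cr1 by 5.77 and 23.99 times in 5-FU recipients and by 4.04 and 1.38 times in control recipients.

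**Figure D2:**
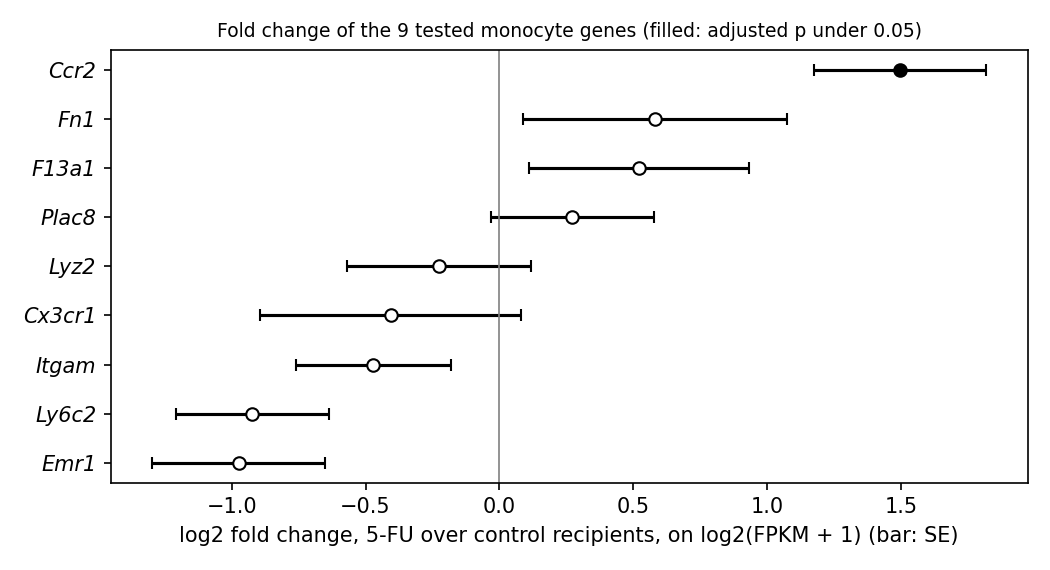
Log2 fold change of the 9 tested genes in 5-FU over control recipients on the log2(FPKM + 1) scale (horizontal axis), with bars for the standard error of the limma fit to 2 libraries per group. The filled point, Ccr2 at 1.496, is past an adjusted p of 0.05, and the open points from Fn1 at 0.58 to Emr1 at −0.97 are not.

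Emr1 (now Adgre1, chr17:57358581-57483529) encodes F4/80, an adhesion receptor that is low on classical monocytes and high on macrophages. It had 169 and 84.9 FPKM in 5-FU recipients, against 211 and 264 FPKM in control recipients. The groups did not overlap, and 5-FU recipient 2 was the lowest by a wide margin. The log2 fold change was −0.97 (SE 0.32, adjusted p = 0.084, limma), and without 5-FU recipient 1 it was −1.47 and past the threshold (adjusted p = 3.0e-04). Without 5-FU recipient 2 it was −0.48 (adjusted p = 0.093). The 17 macrophage markers had their lowest sum in the same library, and their part in the level of Emr1 was not tested. Emr4, a close relative of Emr1 that is also a surface receptor of myeloid cells, fell by 1.89 on the log2 scale (adjusted p = 0.013), with 55.7 and 30.1 FPKM in 5-FU recipients and 155 FPKM in each control recipient. A further relative, Cd97, fell by 1.29 (adjusted p = 0.045).

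Itgam (chr7:128062640-128118491) encodes CD11b, which pairs with the beta chain encoded by Itgb2 to form the integrin Mac-1, a receptor for complement fragments and ICAM-1. It had 7.05 and 7.51 FPKM in 5-FU recipients, against 13.1 and 8.34 FPKM in control recipients. The groups did not overlap, though control recipient 2 lay just above the 5-FU libraries. The log2 fold change was −0.47 (95% interval −1.15 to 0.20, adjusted p = 0.30, limma). Itgb2 was far more abundant, at 243 and 154 FPKM in 5-FU recipients and 315 and 359.9 FPKM in control recipients (log2 fold change −0.80, adjusted p = 0.080). Lyz2, given above, overlapped between the groups, with a log2 fold change of −0.23 (95% interval −1.02 to 0.57, adjusted p = 0.69, limma).

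**Figure D3:**
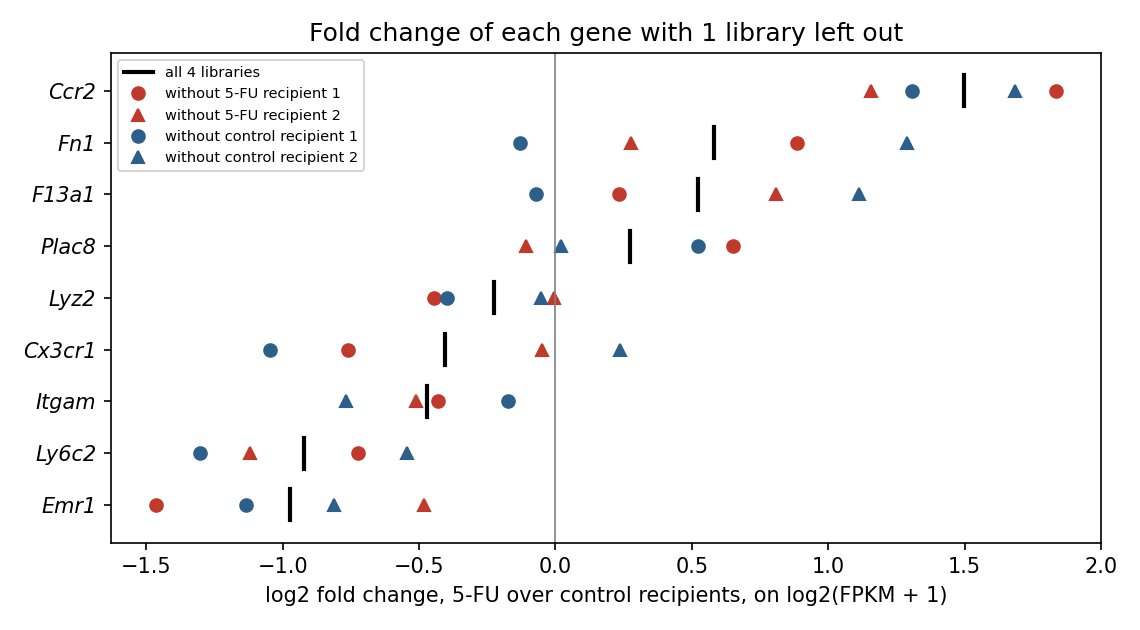
Log2 fold change of each tested gene in 5-FU over control recipients on the log2(FPKM + 1) scale (horizontal axis), with all 4 libraries (black bar) and with 1 library left out (points; red for a 5-FU library, blue for a control library, circles for recipient 1 and triangles for recipient 2). Ccr2 stays above 1 in each case and Ly6c2, Emr1 and Itgam below 0, whereas F13a1, Fn1, Plac8 and Cx3cr1 have points on both sides of 0.

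In the median, the members differed between libraries of the same group more than all tested genes did. The 10 genes include Vcan, which did not pass the filter, and the comparison was not matched for level. Between the control recipients the median absolute difference was 0.55 on the log2(FPKM + 1) scale over the 10 genes, beside 0.21 over all tested genes. Between the 5-FU recipients it was 0.64, beside 0.35. Of the 10 genes, 8 were higher in control recipient 2 than in control recipient 1, where 50% of all tested genes were, and the exceptions were Plac8 and Itgam. Between the 5-FU recipients 6 of the 10 were higher in recipient 2, where 51.9% of tested genes were, and F13a1, Cx3cr1, Lyz2 and Emr1 were higher in recipient 1. Elane, the neutrophil elastase gene of promyelocytes, also set the control libraries apart, with 4.94 FPKM in control recipient 1 and 148 FPKM in control recipient 2, beside 2.55 and 1.82 FPKM in the 5-FU recipients.

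Ratios within a library do not depend on the scaling between libraries. The ratio of Ccr2 to Emr1 was 0.0631 and 0.208 in 5-FU recipients, against 0.0169 and 0.0188 in control recipients. Both 5-FU libraries had the higher ratio, and they differed from each other more than the control libraries did. That separation follows from Ccr2 being higher and Emr1 lower in both 5-FU libraries, so it is no further result. The ratio of Ly6c2 to Emr1 was 0.201 and 0.530 in 5-FU recipients and 0.272 and 0.371 in control recipients, so the control libraries lay between the 5-FU libraries and the groups overlapped. With 2 libraries per group an exact permutation test cannot reach the threshold, and the ratios were not tested.

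**Figure D4:**
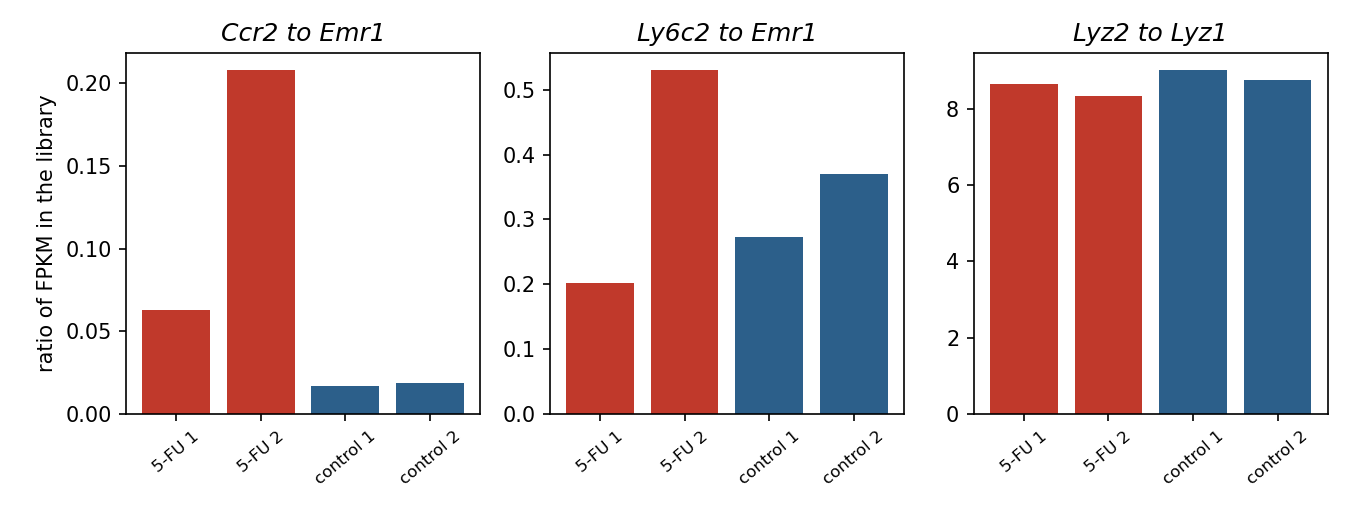
Ratio of the FPKM of 2 genes within each library (vertical axes, each from 0) in 5-FU recipients (red) and control recipients (blue). The ratio of Ccr2 to Emr1 is higher in both 5-FU libraries, that of Ly6c2 to Emr1 overlaps between groups, and that of Lyz2 to its copy Lyz1 lies between 8.34 and 9.02 in all 4.

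Some members have near-identical copies, whose reads the counting could split. Reads were 75 bp long, and of the 75-base windows in the coding transcripts of Ly6c2 in GENCODE M21, 20.7% also occurred in Ly6c1, which lies on the same chromosome. For Lyz2 the share was 5.96%, all in its neighbour Lyz1. Ly6c1 was under 1 FPKM in every library, and Ly6c2 exceeded it by 68.1 to 95.4 times in 5-FU recipients and by 139 to 142 times in control recipients. Lyz1 had 346 and 265 FPKM in 5-FU recipients, against 296 and 388 FPKM in control recipients, a nearly fixed share of Lyz2. F13a1, Vcan, Plac8 and Emr1 shared no window with another gene. Itgam shared 67.7% of its windows with Gm49368, a gene model that overlaps it in GENCODE and has no row in the deposited tables, and Fn1 and Cx3cr1 shared 2% and 0.11% with antisense genes that overlap them.

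Of the CCR2 ligand genes Ccl2, Ccl7 and Ccl12, 1 passed the test. Ccl12 rose by 1.74 on the log2 scale (adjusted p = 0.015, limma), with 15.3 and 22.5 FPKM in 5-FU recipients against 5.16 and 4.58 FPKM in control recipients. Ccl2, the main CCR2 ligand, had 4.28 and 4.66 FPKM in 5-FU recipients, between the 1.31 and 9.63 FPKM of control recipients (adjusted p = 0.90). Ccl7, also a CCR2 ligand, had 7.58 and 0.843 FPKM in 5-FU recipients, was listed at 0 in control recipient 1 and had 2.33 FPKM in control recipient 2, so the groups overlapped (adjusted p = 0.36). Cx3cl1, the ligand of CX3CR1, was at 0.0726 and 0.611 FPKM in 5-FU recipients and 1.24 and 0.213 FPKM in control recipients and was not tested. In the list of 17 monocyte chemokines and receptors 13 were tested, of which 2 rose, 2 fell and 9 did not pass. Over all tested genes 8.23% were called higher and 4.67% lower. Ccl5, a chemokine of T cells and monocytes, rose by 1.70 (adjusted p = 0.011). Ccl3 and Ccl4, inflammatory chemokines of myeloid cells, fell by 3.798 and 2.19 (adjusted p = 3.8e-04 and 0.0059, limma).

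Of the 23 tested regulators and receptors of monocyte fate, 3 fell, 0 rose and 20 did not pass, with a median log2 fold change of −0.50. The shares over all tested genes were 4.67% called lower and 8.23% called higher. Klf4, needed for Ly6C-high monocytes in the mouse, had 1.99 and 1.72 FPKM in 5-FU recipients, against 8.63 and 10.7 FPKM in control recipients, a fall of 1.89 (adjusted p = 0.013, limma). Csf1r fell by 1.27 (adjusted p = 0.027) and the interferon regulatory factor gene Irf5 fell by 0.92 (adjusted p = 0.046). The log2 fold change was −0.63 (adjusted p = 0.10) for Irf8 and −0.50 (adjusted p = 0.11) for Sfpi1, the gene of PU.1, and both had their 5-FU libraries below the control libraries. Nr4a1, needed for the patrolling subset, overlapped between the groups at 11.04 and 4.57 FPKM in 5-FU recipients and 8.21 and 7.12 FPKM in control recipients.

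Further genes of the classical and patrolling subsets moved in both directions. Their counts stand beside 8.23% called higher and 4.67% called lower over all tested genes. Of 24 other classical monocyte genes tested, 2 rose, 5 fell and 17 did not pass, with a median of −0.43. S100a4 and S100a6, calcium-binding proteins of motile cells, rose by 1.63 and 0.83 (adjusted p = 0.029 and 0.044). Cd14, the lipopolysaccharide co-receptor, fell by 1.41 (adjusted p = 0.024), the lectin receptor gene Clec4a3 by 0.98 (adjusted p = 0.025), and Clec4a1, Cybb and Ifitm6 fell as well. Of 18 other patrolling monocyte genes tested, 1 rose, 7 fell and 10 did not pass, with a median of −0.35. Klf2, a transcription factor of quiescent leukocytes, fell by 2.00 (adjusted p = 0.0065), Emr4 by 1.89 and the ion transporter gene Slc12a2 by 1.52 (adjusted p = 0.016), and Cd36, a scavenger receptor, rose by 0.90 (adjusted p = 0.044). Spn, which encodes CD43, a marker of the patrolling subset, had 10.003 and 33.1 FPKM in 5-FU recipients, against 14.3 and 8.64 FPKM in control recipients (adjusted p = 0.40). The counts in the lists were lower when either control library was left out, though some chemokines and receptors and some neutrophil markers were still called. Without control recipient 1, and without control recipient 2, the genes called in either direction were 1 and 0 classical genes, 1 and 1 patrolling genes, 0 and 0 fate regulators, 3 and 2 chemokines and receptors, 0 and 1 macrophage markers and 4 and 4 neutrophil markers. Without 5-FU recipient 1, and without 5-FU recipient 2, they were 16 and 12 classical genes, 12 and 8 patrolling genes, 16 and 6 fate regulators, 6 and 6 chemokines and receptors, 15 and 5 macrophage markers and 9 and 6 neutrophil markers. With no filter on low values, 0 classical genes, 0 patrolling genes, 0 fate regulators, 1 chemokine, 0 macrophage markers and 1 neutrophil marker were called, and without the variance trend 0 classical genes, 6 patrolling genes, 1 fate regulator, 5 chemokines and receptors, 1 macrophage marker and 6 neutrophil markers. Every call in the classical list therefore ended under both of these settings. With 1 library left out, the median of the classical list ran from −0.57 to −0.28, that of the patrolling list from −0.72 to −0.11 and that of the macrophage markers from −1.34 to −0.50.

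**Figure D5:**
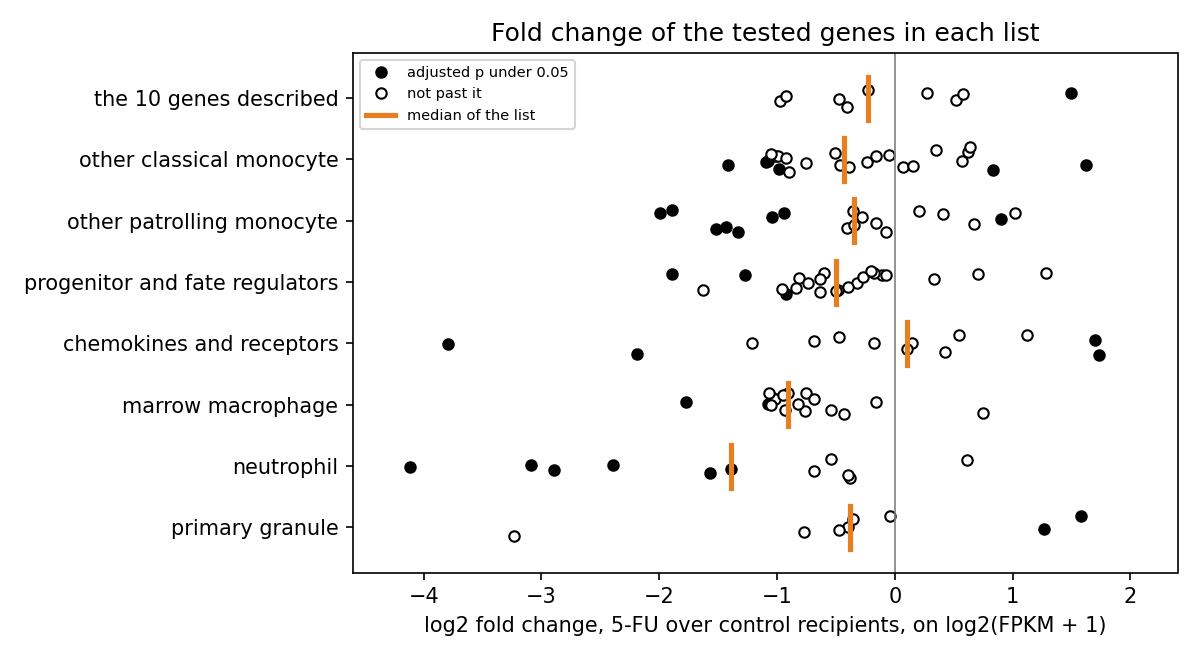
Log2 fold change of every tested gene in 8 lists, in 5-FU over control recipients on the log2(FPKM + 1) scale (horizontal axis), with filled points for an adjusted p under 0.05 and an orange bar at the median of each list. The 9 tested members have a median of −0.23 and 1 filled point, Ccr2, whereas the macrophage and neutrophil markers have medians of −0.90 and −1.39.

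Markers of the cells that share these genes moved as follows, where 8.23% of all tested genes were called higher and 4.67% lower. Of 17 marrow macrophage markers 0 rose, 3 fell (Timd4, Mrc1 and Spic) and 14 did not pass, with a median of −0.90 and none under 1 FPKM in all libraries. C1qa, Vcam1 and Siglec1 were among those that did not pass. Of 11 neutrophil markers tested 0 rose, 6 fell and 5 did not pass, with a median of −1.39 and summed levels of 3649.9 and 3477 FPKM in 5-FU recipients against 12632 and 9819 FPKM in control recipients. Of these, Ngp fell by 4.12, Ltf fell by 2.89 and Camp, like them a gene of a granule protein, fell by 3.09 on the log2 scale (adjusted p = 1.6e-04, 9.0e-04 and 0.0031, limma). S100a8, which monocytes and neutrophils share, fell by 1.39 (adjusted p = 0.037). Of 8 primary granule markers, Ctsg and Nkg7 rose, by 1.58 and 1.26, and 6 did not pass, Ms4a3 among them. All 6 had negative log2 fold changes, and the median of the 8 was −0.38. Mpo, the marker enzyme of granulocyte-monocyte progenitors, had 153 and 128 FPKM in 5-FU recipients, against 119 and 174 FPKM in control recipients (adjusted p = 0.93). Of the dendritic and lymphoid markers only Cd74 and Cd79b passed, and both fell, among 9 and 8 tested. None of the 7 stromal and endothelial or the 7 megakaryocyte markers tested passed, and the summed stromal level was 46.3 and 27.9 FPKM in 5-FU recipients and 44.6 and 39.9 FPKM in control recipients. The part of these cells in the levels of the 10 genes was not tested.

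Of 15 tested receptors and matrix partners of the members 0 rose, 1 fell (C3, the complement protein whose fragments Mac-1 binds) and 14 did not pass, with a median of −0.17, where 8.23% of all tested genes were called higher and 4.67% lower. Of the fibronectin receptor subunits, Itga5 had 8.33 and 8.88 FPKM in 5-FU recipients against 5.73 and 4.70 FPKM in control recipients (log2 fold change 0.63, adjusted p = 0.15), and Itga4 overlapped between groups (−0.10, adjusted p = 0.83). Cd44, a receptor for hyaluronan, to which versican binds, was at 53.6 and 63.6 FPKM in 5-FU recipients and 56.5 and 55.5 FPKM in control recipients. Of the 12 tested relatives of the members by family, Ly6a rose by 1.19 (adjusted p = 0.032), Emr4 and Cd97 fell, and 9 did not pass.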

How the data were processed

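RNA-seq of sorted mouse EGFP+ cells was analysed in 4 libraries, 2 from 5-FU and 2 from control recipients, as the titles in the labels assign them. cDNA was made with a Clontech SMART-Seq kit and sequenced from one end over 75 bases. Per the submitters' processing notes, TopHat2 2.0.13, Bowtie2 2.2.3, SAMtools 0.1.19 and Cuffnorm 2.2.1 were used on mm10, and the deposited values are taken as FPKM from the named tool and from their range, since no header states the unit. Annotation, strand use and scaling settings are not stated in the labels or headers. Day numbers in the headers and in the names of the 5-FU tables disagree, and only the labels were used.

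FPKM were used as deposited. Genes reaching 1 FPKM in 2 or more libraries were tested with limma 3.58.1 in R 4.3.3 on log2(FPKM + 1), with group as the only term, a mean-variance trend, two-sided p and Benjamini-Hochberg adjustment over the 11496 genes tested (threshold 0.05). A fold change on this scale understates that of low genes. Intervals are 95% and not adjusted for multiple genes. The fit has 2 residual degrees of freedom. It was tested on simulated data. Reads implied by FPKM are rough, from low values of single-transcript genes of 800 to 6000 bases and GENCODE M21 lengths. Shared read windows came from the same transcripts.

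The 10 members, the 14 other lists (213 of 214 symbols matched, 3 through synonyms) and the tests were chosen with earlier results of these data known. Named genes are all members, up to 3 of smallest p in each list, and a further set regardless of value, of which some are not reported here. Ccl12, Ccl7, S100a6, Cd36, Clec4a1, Cybb, Ifitm6, Elane, Cd34, Flt3 and Slamf1 fall outside that rule and were named after their values were seen. Ly6g had no matching row and is not used here. Alternatives were the pseudocount, the filter, scaling, the variance model, a replicate term and leaving out each library. Figures were drawn with matplotlib 3.10.9.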

Additional observations from a re-analysis of the deposited data

How the results depend on the processing

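All values here are 5-FU over control recipients. Ccr2 kept its direction in all 15 alternatives (log2 fold change 1.03 to 1.84) and was past the threshold in 12; it did not pass with no filter (1.496, adjusted p = 0.11) or without either control library. Leaving out 1 library gave 1.16 to 1.84 for Ccr2, −1.30 to −0.54 for Ly6c2, −0.072 to 1.11 for F13a1, −0.13 to 1.29 for Fn1, −1.05 to 0.24 for Cx3cr1, −0.11 to 0.65 for Plac8, −0.45 to −0.0041 for Lyz2, −1.47 to −0.48 for Emr1 and −0.77 to −0.17 for Itgam. The sign therefore turned for F13a1 and Fn1 without control recipient 1 (−0.072 and −0.13), for Cx3cr1 without control recipient 2 (0.24) and for Plac8 without 5-FU recipient 2 (−0.11). Ly6c2, Emr1, Itgam and Lyz2 kept theirs in all alternatives run.

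The count of members called higher (1) was 0 with no filter and 0 to 2 with 1 library left out; that of members called lower (0) was 0 to 1 with 1 library left out. Over all genes, 946 were higher and 537 lower. These were 3 and 4 with no filter, where 3680 genes had an unadjusted p under 0.05, and 548 and 299 without the trend. With 1 library left out they ran from 88 to 2122 higher and from 38 to 1876 lower: 2122 and 1876 without 5-FU recipient 1, 88 and 38 without control recipient 1 and 92 and 43 without control recipient 2. The cause was not tested.

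The replicate numbers are not said to mark a shared mouse, batch or day. With the replicate number as a block, 1 member was lower, Ly6c2 (−0.92, adjusted p = 0.036). Deviations of same-numbered libraries correlated at −0.16 across tested genes, so a block with crossed numbers was added after seeing the data. It called 1686 genes higher and 1365 lower and 2 members lower, Ly6c2 (−0.92) and Emr1 (−0.97). A pairing picked from the same deviations favours more calls, so no conclusion is drawn from these counts. Low reads limit Vcan and Cx3cr1 the most.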
